A study of Moxostoma hubbsi with 18 samples.

Results

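The genes described here encode CD44, parts of the hemidesmosome and the keratins, measured in the copper redhorse (Moxostoma hubbsi), a river fish whose survival is threatened. They were taken by identifier from a table of 9645 features, and all 7 identifiers were present: K06256 (CD44), K06485 (ITGA6), K06525 (ITGB4), K07603 (COL17A), K10388 (PLEC), K07604 (type I keratins) and K07605 (type II keratins). The names are those of the KEGG ortholog groups supplied with the list of members. The deposited files give identifiers only, so genome positions and lengths were not analysed here. The members were selected on measured values, the difference between river and laboratory water, above all that of CD44, so the values of that comparison describe the members and do not test them.

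Larvae were reared in laboratory water, the control, or in river water, which the series title calls contaminated. There were 9 libraries of each water, and every library was made from 5 whole larvae pooled at 14 days after fertilization. The water is the sole factor named in the labels. Nothing in the labels says that pools of the same water had separate tanks, so the p-values below measure only how these pools varied, part of which may be technical. A level is given as CPM, the share of counts scaled to a fixed total, after adjustment of the libraries. Levels are compared between libraries for 1 gene, since gene lengths were not used. Where a mean level is ranked among all features, the rank rests on counts that were not corrected for length.

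The hemidesmosome is the junction that fastens the basal cells of the epidermis and other lined surfaces to the basement membrane beneath them. Its core is the receptor made of the integrin chains alpha 6 and beta 4, joined by type XVII collagen, a collagen that spans the cell membrane, and by plectin, a large linker inside the cell. Plectin ties the junction to keratin filaments, which are built from pairs of a type I and a type II keratin and give epithelial cells their mechanical strength. CD44 is a cell-surface receptor for hyaluronan, a sugar polymer of the matrix, and in mammals it is found on epithelial cells, connective tissue cells and leukocytes. In mammals the integrin pair, type XVII collagen and CD44 also take part in the movement of skin cells during wound closure.

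All 7 members were abundant enough to test among 9008 features, with between 17 and 114404 counts in a library. Laboratory libraries held 15893484 to 20584727 counts, and river libraries 14868181 to 20095604. Among the river water libraries, replicate 1 was the lowest for ITGA6, ITGB4, COL17A and both keratin types, and replicate 6 stood far above the rest for CD44. The main results that rest on them are also given without them. Replicate 1 also had the lowest total count and the lowest scaling factor, 0.872 against 0.955 to 1.09 in the other 17 libraries. A number from 1 to 3 in each file's name, called the file number here, divides each water into 3 sets of 3 libraries. The labels do not explain it, and results are also given within each number. In whole larvae, fewer cells of a type and less RNA per cell cannot be told apart.

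**Figure D1:**
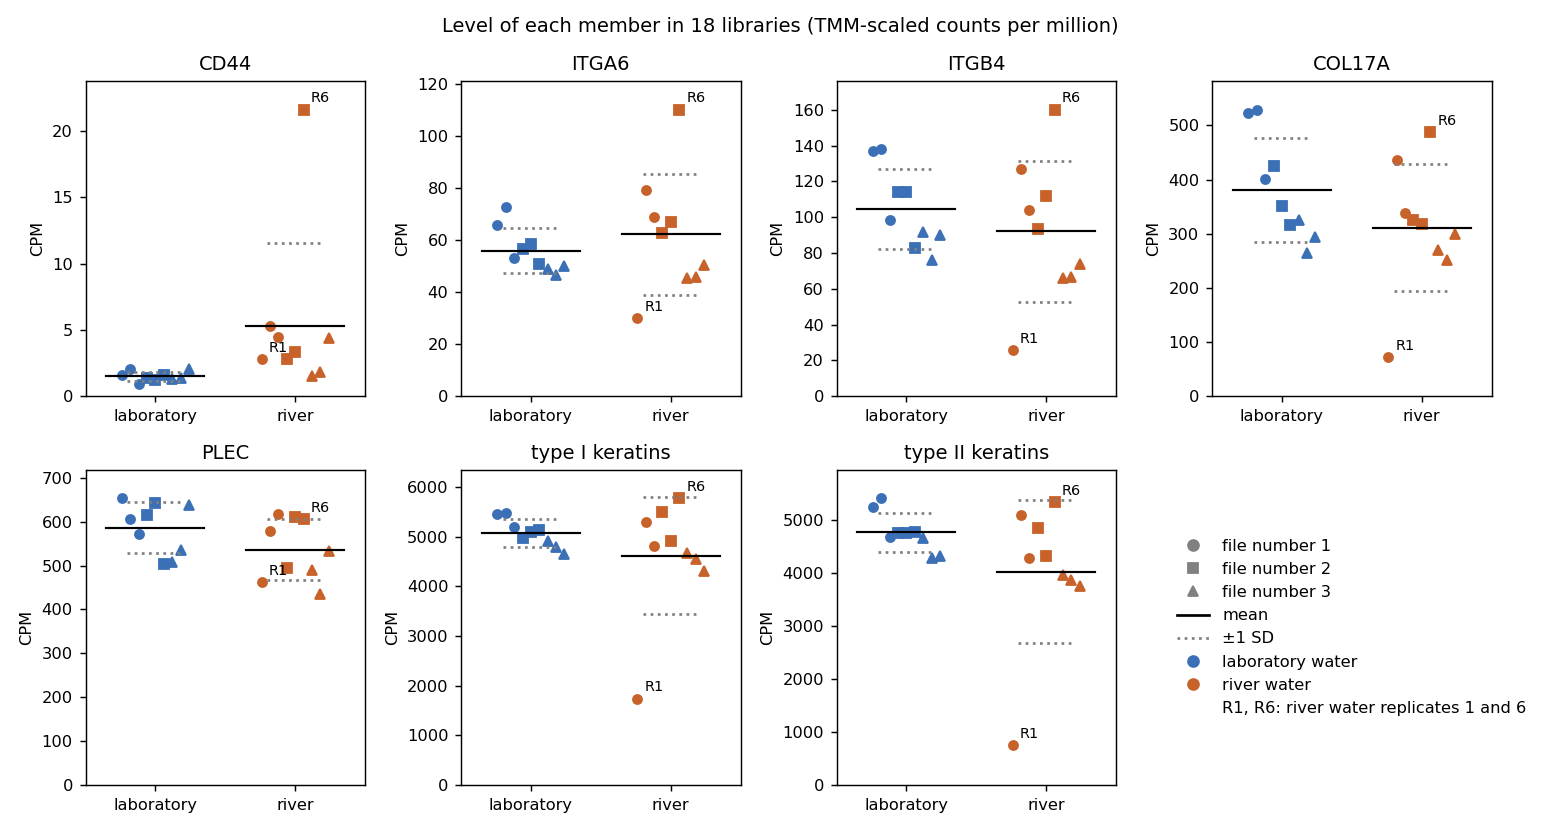
Level of each member (CPM, vertical axes from 0) in the 9 laboratory water and 9 river water libraries, with 1 point per library, spread sideways by replicate number, its shape giving the file number, solid lines at the mean and dotted lines at 1 SD either side of it (the lower CD44 line in river water lies below 0 and is not drawn). CD44 reached 21.6 CPM in river water replicate 6 (R6), and the type II keratins fell to 749 CPM in river water replicate 1 (R1).

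CD44, the hyaluronan receptor, had the largest difference between the waters of the 7 members. Its level in laboratory water was between 0.957 and 2.06 CPM with a median of 1.41 CPM, and in river water between 1.55 and 21.6 CPM with a median of 3.3 CPM. All 9 river water libraries lay above the laboratory mean and 7 lay above the highest laboratory library, while replicates 7 and 8, at 1.55 and 1.85 CPM, lay within the laboratory range. Of all 9008 features, 5.94% had 7 or more river water libraries beyond all laboratory libraries on 1 side. These levels rest on few reads, 17 to 41 counts per library in laboratory water and 29 to 390 in river water.

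The fitted rise of CD44 depended in size on 1 library. With all 18 libraries the log2 change of river over laboratory water was 1.83 ± 0.46 (SE), or 3.57-fold, and without river water replicate 6 it was 1.14 ± 0.22, or 2.21-fold. Leaving out replicate 1 as well gave 1.17 ± 0.23. Without replicate 6 the remaining river libraries averaged 3.3 ± 1.32 CPM (SD, n = 8), against 1.5 ± 0.364 CPM (SD, n = 9) in laboratory water.

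The mean level of CD44 was higher in river water within each file number, by amounts that differed and that in numbers 2 and 3 leaned on 1 library each. Within number 1 the laboratory libraries averaged 1.53 ± 0.553 CPM and the river libraries 4.17 ± 1.28 CPM (SD, n = 3 each), with no overlap. Within number 2 the laboratory level was 1.39 ± 0.188 CPM and the river libraries stood at 2.78, 3.3 and 21.6 CPM, again with no overlap. The share of all features with no overlap in such sets of 3 was not counted. Within number 3 the levels were 1.56 ± 0.405 CPM and 2.59 ± 1.54 CPM (SD, n = 3 each) and overlapped. The difference in mean log2 CPM was 1.40 for number 1, 2.00 for number 2 and 0.57 for number 3. The value for number 2 includes replicate 6, at 21.6 CPM. In number 3 replicate 9 had 4.36 CPM, while replicates 7 and 8, at 1.55 and 1.85 CPM, lay within the laboratory range of 1.28 to 2.03 CPM. Within the numbers, these differences were not taken without replicates 6 and 9.

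The integrin chains differed less between the waters than between the libraries of 1 water. ITGA6, the alpha chain of the hemidesmosome receptor, lay between 46.5 and 72.7 CPM in laboratory water with a median of 53.2 CPM. In river water it lay between 30.1 and 110 CPM with a median of 62.6 CPM, replicate 1 being the lowest and replicate 6 the highest. ITGB4, the beta chain with which it pairs, lay between 76.3 and 138 CPM in laboratory water with a median of 98.4 CPM, and between 25.9 and 160 CPM in river water with a median of 93.4 CPM. The same 2 river water libraries held the extremes of both chains, and the waters overlapped. The log2 change was 0.15 ± 0.17 (SE) for ITGA6 and -0.18 ± 0.23 for ITGB4. It was 0.01 ± 0.15 and -0.32 ± 0.22 without river water replicate 6, and 0.24 ± 0.16 and -0.05 ± 0.19 without replicate 1.

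Type XVII collagen (COL17A), which spans the basal membrane of the cell and meets the integrin on its outer side, had a broad range in both waters. It lay between 264 and 529 CPM in laboratory water with a median of 352 CPM, and between 72.9 and 487 CPM in river water with a median of 318 CPM. The lowest value was that of river water replicate 1, and the next lowest in river water was 252 CPM. Its log2 change was -0.29 ± 0.23 (SE), and -0.16 ± 0.16 without replicate 1. No river water library exceeded the highest laboratory library, and 2 lay below the lowest.

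Plectin (PLEC), the linker to the keratin filaments, overlapped between the waters, with 4 river water libraries below the lowest laboratory library and 0 above the highest. ITGB4 also had 4 below, with 1 above. The share of all features with such counts was not counted, here or for COL17A. In laboratory water PLEC lay between 503 and 653 CPM with a median of 606 CPM. In river water it lay between 435 and 618 CPM with a median of 532 CPM, with replicates 1 and 6 at 462 and 605 CPM, inside the ends of the range. Its log2 change was -0.13 ± 0.07 (SE), and between -0.16 and -0.10 with any 1 library left out. In mammals plectin also serves muscle and many other cell types, so its count in whole larvae need not come from the epidermis.

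The keratins were among the features with the most counts, each above at least 99.6% of the others in mean level. Type I keratins lay between 4650 and 5470 CPM in laboratory water with a median of 5090 CPM, and between 1740 and 5770 CPM in river water with a median of 4810 CPM. Type II keratins lay between 4280 and 5400 CPM in laboratory water with a median of 4740 CPM, and between 749 and 5330 CPM in river water with a median of 4270 CPM. Apart from replicate 1, the lowest river water libraries had 4300 CPM of type I and 3740 CPM of type II keratins, so replicate 1 lay far outside the range of the rest. Together the keratins held 0.891% to 1.12% of all counts in laboratory water and 0.812% to 1.21% in 8 river water libraries, but 0.217% in river water replicate 1.

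The fitted change of the keratins depended in size on that library. With all 18 libraries the log2 change was -0.14 ± 0.14 (SE) for type I and -0.24 ± 0.22 for type II keratins. Without river water replicate 1 it was -0.03 ± 0.05 and -0.10 ± 0.07, and without replicates 1 and 6 it was -0.06 ± 0.05 and -0.15 ± 0.06. For type II keratins 5 river water libraries lay below the lowest laboratory library and 0 above the highest. For type I keratins 3 lay below and 2 above. The share of all features with such counts was not counted. An identifier of this kind stands for a group of orthologous genes, so a change of 1 keratin gene against another of the same type would not be seen.

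Of the 7 members, 1 was past the threshold of the fit across all features, CD44 (edgeR quasi-likelihood test, Benjamini-Hochberg adjusted p under 0.05). Over all 9008 features the share was 6.27%, with 2.13% higher and 4.14% lower in river water. Since CD44 was chosen with this result known, nothing is read from the count. CD44 was also the 1 member past the threshold without river water replicate 1, without replicate 6 and without both, where the shares over all features were 10.9%, 7.08% and 11.5%. Within file number 1 there were 0 members and 0% of features, within number 2 there were 0 members and 0.0555%, and within number 3 the 1 member was ITGB4, lower in river water, against 3.06%. CD44 was not past the threshold with limma-voom or when the libraries of a file number were summed. The median log2 change was -0.14 over the 7 members and 0.01 over all features tested, with 2 members higher and 5 lower in river water. That the 6 other members missed the threshold does not show that their levels were alike in the waters.

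**Figure D2:**
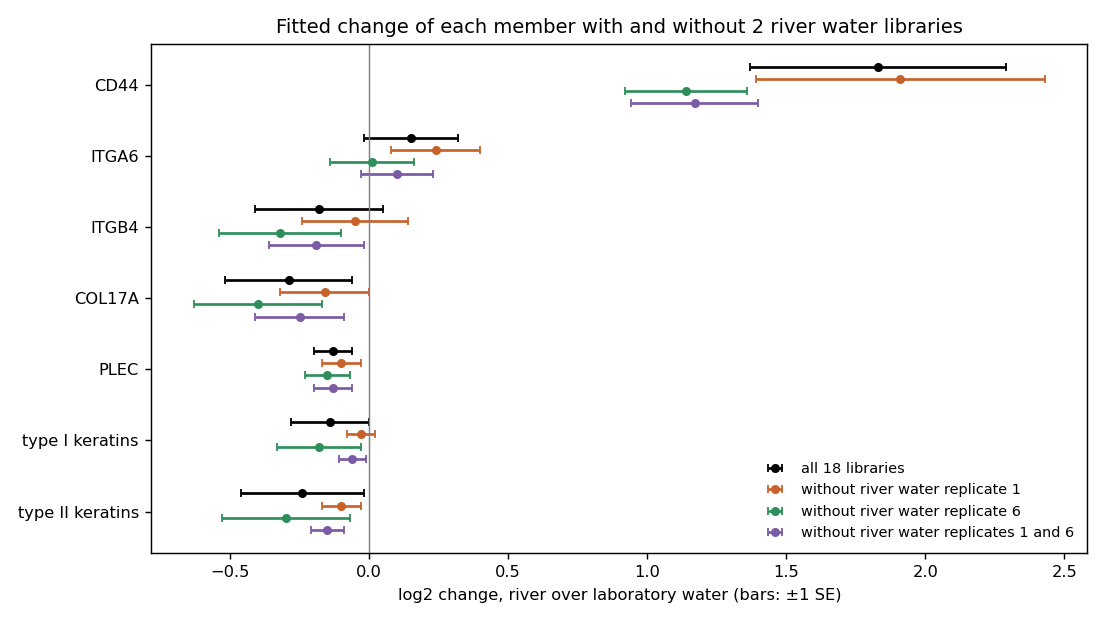
Log2 change of each member, river over laboratory water (horizontal axis, points with bars of 1 SE), fitted with all 18 libraries and without river water replicate 1, replicate 6 or both. CD44 moves from 1.83 to 1.14 without replicate 6, and the changes of the type II keratins move from -0.24 to -0.10 without replicate 1.

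Ratios of counts within a library are free of the scaling between libraries, and they were used to compare the counts of partner chains. In whole larvae the counts of partner chains need not come from the same cells, so a ratio does not give the proportion of chains within a receptor or filament. The ratio of ITGB4 to ITGA6 counts was between 1.63 and 2.07 in laboratory water with a median of 1.87. In river water it was between 1.45 and 1.68 in 8 libraries and 0.862 in replicate 1. In 8 of the 9 river water libraries the ratio lay below every laboratory library, the exception being replicate 5, at 1.68. The mean was 1.86 ± 0.149 (SD, n = 9) in laboratory water, 1.44 ± 0.231 (SD, n = 9) in river water and 1.52 ± 0.0823 (SD, n = 8) without replicate 1.

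The lower ratio was present in each file number. Within number 1 the laboratory libraries had 1.85, 1.90 and 2.07 and the river libraries 0.862, 1.52 and 1.60. Within number 2 the values were 1.63, 1.95 and 2.00 against 1.46, 1.49 and 1.68, which overlapped. Within number 3 they were 1.64, 1.81 and 1.87 against 1.45, 1.46 and 1.47. Counts of the beta chain were low relative to those of the alpha chain in river water, although the levels of each chain overlapped between the waters. The ratio comes from the comparison that chose the members and was picked out after its values were seen, so it carries no test. Over the 40522503 ratios of 9003 features with a count in every library, 2.76% had 8 or more river water libraries beyond all laboratory libraries on 1 side.

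The ratio of type I to type II keratin counts varied less than that of the integrin chains in laboratory water, and also in river water once replicate 1 was left out. The integrin chains had 336 to 2901 counts per library and the keratins 9706 to 114404, and the part of counting error in this order was not tested. The river water values without replicate 1 were close, with an SD of 4.25% of the mean for the keratin ratio and 5.43% for the integrin ratio. The keratin ratio was between 1.01 and 1.12 in laboratory water, with a mean of 1.07 ± 0.0343 (SD, n = 9). In 8 river water libraries it was between 1.04 and 1.18, with a mean of 1.13 ± 0.0479 (SD, n = 8), and 7 of the 9 river water libraries lay above every laboratory library, where 6.21% of all ratios had 7 or more on 1 side. River water replicate 1 stood at 2.33, since its type II keratins had fallen further than its type I keratins. CD44 counts came to between 0.973% and 2.25% of ITGB4 counts in laboratory libraries and between 2.35% and 13.4% in river libraries. All 9 river water libraries lay above all 9 laboratory libraries in this ratio, which was likewise chosen after the values were seen. For CD44 alone 7 of the 9 already did so, and low ITGB4 took part in the separation of the rest. Replicates 7 and 8 had CD44 within the laboratory range, but ITGB4 at 66 and 66.7 CPM, below the lowest laboratory library at 76.3 CPM. Replicate 1 reached 10.7% with ITGB4 at 25.9 CPM and CD44 at 2.78 CPM. Of all ratios 0.849% were separated in this way on either side, and of single features 0.888%.

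**Figure D3:**
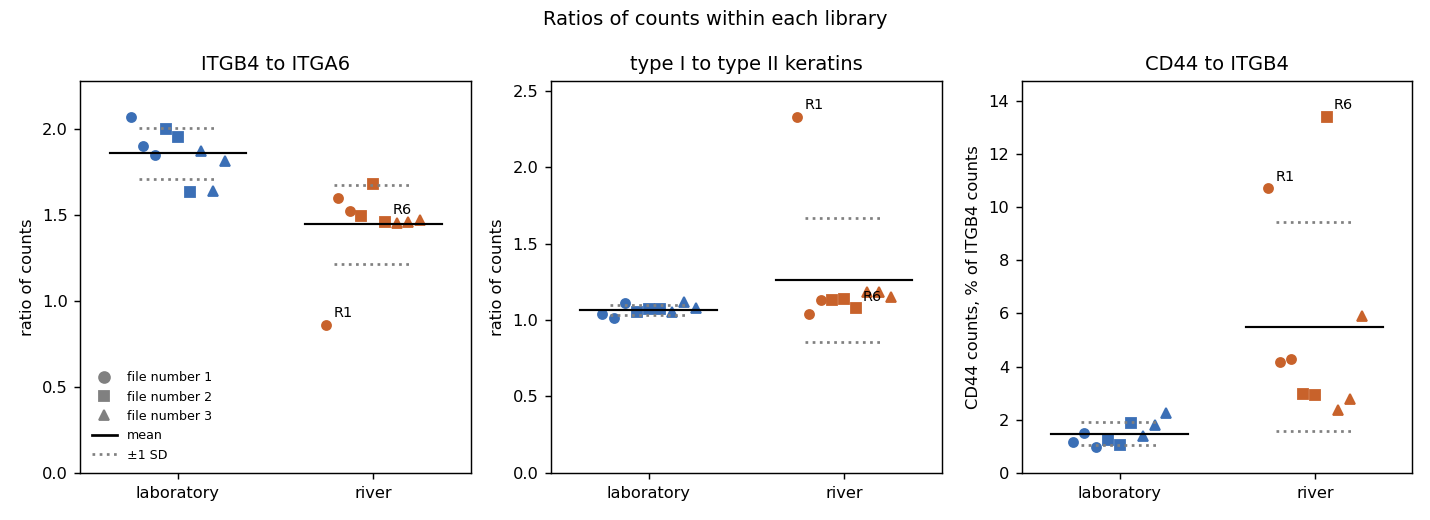
Ratio of ITGB4 to ITGA6 counts, ratio of type I to type II keratin counts, and CD44 counts as a percentage of ITGB4 counts (vertical axes from 0) in each library, with 1 point per library, its shape giving the file number, solid lines at the mean and dotted lines at 1 SD either side. The ITGB4 to ITGA6 ratio lies between 1.63 and 2.07 in laboratory water and at 1.68 or less in river water, and river water replicate 1 (R1) stands at 2.33 in the keratin ratio.

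River water replicates 1 and 6 were each set against the mean log2 CPM of the remaining 7 river libraries. Both were singled out by the values of these members, so the ranks given here describe the libraries and test nothing. In replicate 1 the type II keratins were 5.70-fold lower, a log2 difference of -2.51, and only 48 of 9008 features fell further. COL17A was 4.33-fold lower, ITGB4 3.44-fold lower, the type I keratins 2.78-fold lower and ITGA6 1.95-fold lower. These members ranked 97th, 188th, 337th and 750th from the lowest of the 9008 features. PLEC and CD44 differed little, with log2 differences of -0.21 and -0.15. The keratins, the integrin chains and type XVII collagen were low together in this library, as were many features other than the members, while plectin and CD44 stayed near the other libraries. The cause was not tested. The median difference over all features was 0.

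In replicate 6 CD44 was 6.75-fold above that mean, a log2 difference of 2.75 and the largest excess of all 9008 features. ITGA6 and ITGB4 were higher by 0.90 and 0.85 on the log2 scale, and COL17A by 0.63. The keratins and PLEC differed by 0.18 to 0.32. CD44 was the member that differed most in size in replicate 6 and least in replicate 1. These are single libraries picked out by these same values, so a high rank was built in, and the differences have no replicate check.

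The file number was tested within each water, a comparison other than the one that chose the members. The file number and this test were still chosen with earlier results of these data known, so the p-values are not those of an independent test. In laboratory water COL17A differed between the numbers (edgeR quasi-likelihood test over 3 numbers, n = 3 each, Benjamini-Hochberg adjusted p = 0.0339 over 9018 features). Its mean level was 484 ± 72.2, 365 ± 55.2 and 295 ± 30.6 CPM (SD, n = 3) in numbers 1, 2 and 3, and its log2 level in number 3 was 0.72 below that in number 1. It was the 1 member of 7 past the threshold, where 0.976% of all features were. ITGA6 missed it with 64.0 ± 9.89, 55.2 ± 4.04 and 48.5 ± 1.74 CPM (adjusted p = 0.0931, edgeR), as did ITGB4 with 124 ± 22.4, 103 ± 17.9 and 85.9 ± 8.39 CPM (adjusted p = 0.388, edgeR). The call for COL17A was lost without laboratory water replicate 1, 2, 5, 8 or 9, with an adjusted p between 0.00116 and 0.151 over the 9 libraries left out in turn (edgeR). Without replicate 3, ITGA6 and ITGB4 passed as well, and 284 of 9020 features passed, against 88 of 9018 with all 9 libraries. Over all features 16 to 65 passed in the settings where the COL17A call was lost, and 39 to 284 where it was kept.

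In river water 0 of 7 members and 0 of 9019 features passed for the file number with edgeR or limma-voom, a share of 0%. At an unadjusted p under 0.05 there were 167 features and 0 members (edgeR), and 839 features and 5 members without replicate 1. The libraries of number 3 had the lowest mean levels of ITGA6, ITGB4, COL17A, PLEC and both keratin types once replicate 1 was left out, as in laboratory water. With water as a term over 18 libraries, 0 of 7 members passed, against 0.0222% of features (edgeR). With replicate 1 left out 0 of 7 passed, against 0.865%, and COL17A had an adjusted p of 0.0615 (edgeR). In that fit 1425 of 9015 features and 6 members had an unadjusted p under 0.05 (edgeR). With all 18 libraries it was 432 features and 0 members. There were 0 features past the threshold for a difference between the waters in the effect of the number (edgeR, 289 at an unadjusted p under 0.05, and 0 members among them). This combined test was chosen after the data were seen, and no other tool was run for it.

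The members were then compared with each other across the libraries of each water, which is free of the difference between the waters. These tests too were chosen with earlier results of these data known. For each of the 21 pairs of members, the Pearson correlation of log2 CPM over 9 libraries was tested with an exact two-sided permutation test, and p-values were adjusted over the 21 pairs of a water by the Benjamini-Hochberg method. All 9 libraries were permuted freely, so these p-values take no account of the file number. The correlations within file numbers given below were not tested. In laboratory water 10 of the 21 pairs passed at 0.05, the lowest of them with r = 0.76, and 3.92% of all 40567528 pairs of features had an r of at least that size. In river water 14 passed, the lowest with r = 0.67, a size reached by 27.5% of all pairs of features, and by 12.4% without replicates 1 and 6. Many features other than the members were thus correlated as strongly, above all in river water. The integrin chains, COL17A and the keratins made up all 10 pairs of laboratory water.

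The integrin chains moved together in both waters. In laboratory water ITGA6 and ITGB4 correlated at r = 0.96 (adjusted exact permutation p = 0.0011) and rho = 0.93 (adjusted exact permutation p = 0.00787). Without the 2 libraries farthest from the median r was 0.95, and within file numbers, with the mean of each number subtracted, it was 0.91. In river water r was 0.97 (adjusted exact permutation p = 0.000116) and rho 0.98 (adjusted exact permutation p = 0.000521), and r was 0.99 without replicates 1 and 6 and 0.97 within file numbers. The pair thus kept its correlation in both waters while its ratio differed.

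Type XVII collagen moved with the integrin chains. ITGB4 and COL17A correlated at r = 0.94 in laboratory water (adjusted exact permutation p = 0.00262) and rho = 0.93 (adjusted exact permutation p = 0.00787). The value was 0.83 without the 2 farthest libraries and 0.89 within file numbers. In river water r was 0.97 (adjusted exact permutation p = 0.000116) and rho 0.93 (adjusted exact permutation p = 0.00394), with r = 0.90 without replicates 1 and 6 and 0.99 within file numbers. Plectin correlated less with these parts, at 0.51 to 0.70 in laboratory water, where 0 of its 3 pairs with them passed, and at 0.62 to 0.78 in river water, where 2 of 3 passed. Without replicates 1 and 6 the river water values were 0.69 to 0.80.

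Type I and type II keratins, the obligate partners of the keratin filament, correlated at r = 0.94 in laboratory water (adjusted exact permutation p = 0.00301) and rho = 0.88 (adjusted exact permutation p = 0.0129). The r was 0.89 without the 2 farthest libraries and 0.83 within file numbers. In river water r was 1.0 (adjusted exact permutation p = 0.000116) and rho 0.98 (adjusted exact permutation p = 0.000521), and r was 0.96 without replicates 1 and 6 and 1.0 within file numbers. Between a keratin type and ITGA6, ITGB4 or COL17A, 6 of 6 pairs passed in each water by Pearson's r. By Spearman's rho 4 of 6 passed in laboratory water, where ITGB4 missed with the type I (adjusted exact permutation p = 0.0774) and the type II keratins (adjusted exact permutation p = 0.0595), and 6 of 6 in river water. The river water r of these pairs was 0.79 to 0.97, and 0.65 to 0.83 without replicates 1 and 6. In laboratory water those with the type I keratins fell from 0.76 to 0.86 over all libraries to 0.28 to 0.46 within file numbers, and those with the type II keratins from 0.86 to 0.92 to 0.66 to 0.77.

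CD44 and plectin had no passing pair in laboratory water. The r of CD44 with the 6 other members was between 0.01 and 0.34 there (lowest adjusted exact permutation p = 0.556). Within file numbers it was higher, between 0.21 with the type I keratins and 0.67 with ITGA6, and these values were not tested. CD44 had only 17 to 41 counts per library there, and the size of relation detectable at this depth was not tested. The lack of a passing pair does not show that CD44 varied independently of the others. In river water its r was between 0.29 and 0.77, and the pairs with ITGA6 (r = 0.77, adjusted exact permutation p = 0.032) and PLEC (r = 0.67, adjusted exact permutation p = 0.0441) passed. Spearman's rho was 0.90 with ITGA6 (adjusted exact permutation p = 0.0071) and 0.77 with PLEC (adjusted exact permutation p = 0.0264). Without replicates 6 and 7, the libraries farthest from the median of CD44, r was 0.57 with ITGA6 and 0.80 with PLEC. Within file numbers it was 0.69 and 0.55. By Spearman's rho 4 of the 6 pairs of CD44 passed in river water. The difference between the waters in these correlations was not tested.

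**Figure D4:**
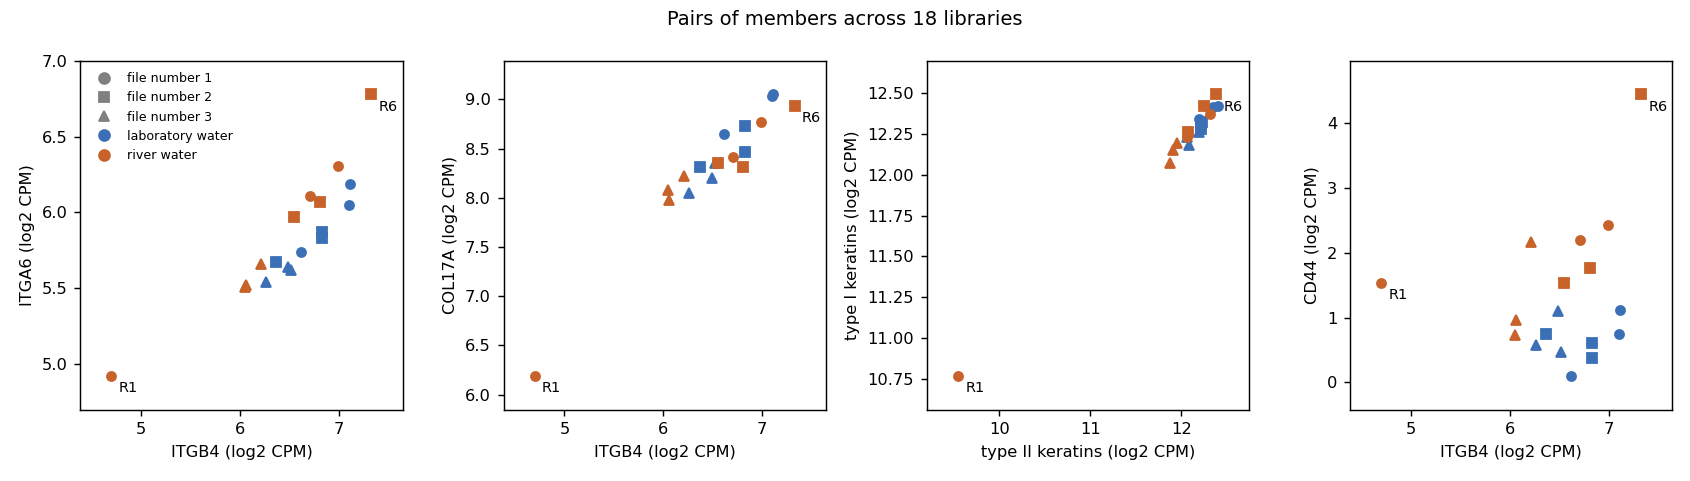
Log2 CPM of 4 pairs of members across 18 libraries (ITGA6, COL17A and CD44 against ITGB4, and type I against type II keratins), with 1 point per library, colours for the waters and shapes for the file numbers. River water replicate 1 (R1) lies at the low end of the integrin, collagen and keratin plots, and river water points lie above laboratory water points at a like ITGB4 level in the ITGA6 and CD44 plots.

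**Figure D5:**
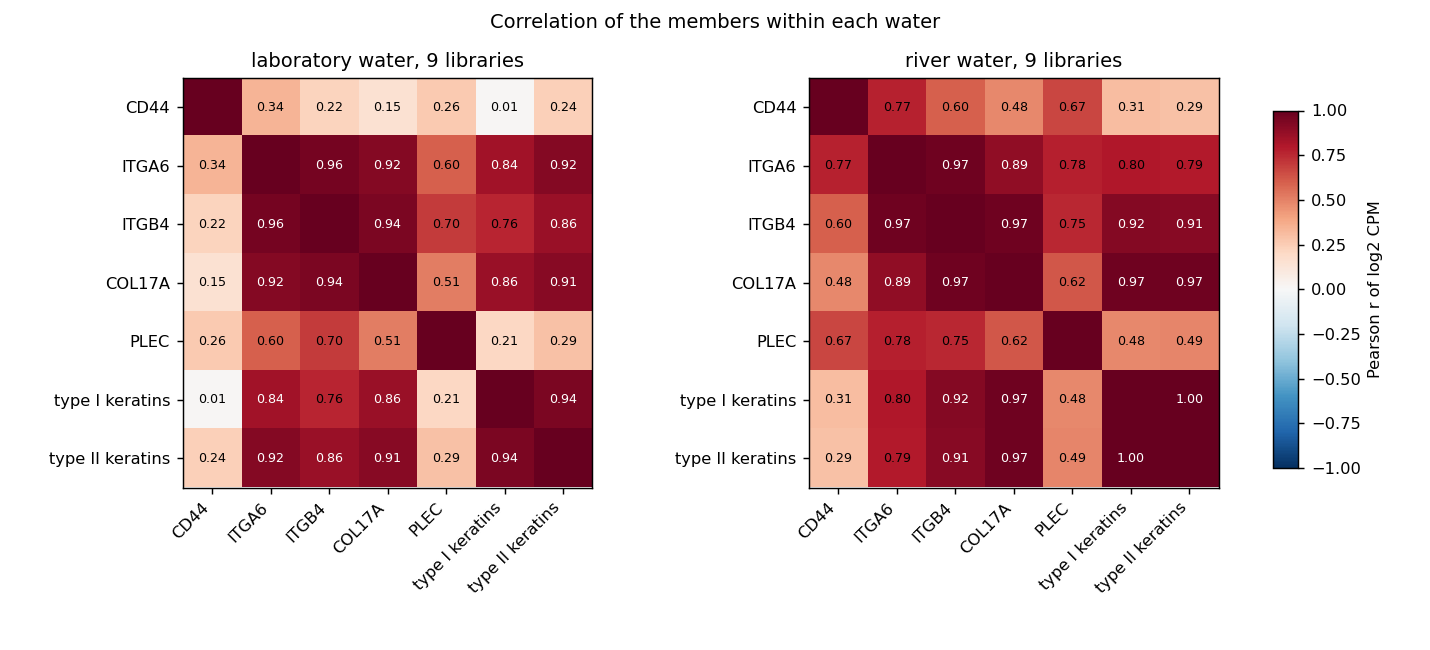
Pearson correlation of log2 CPM for each pair of members over the 9 laboratory water libraries (left) and the 9 river water libraries (right), with colour from -1 to 1 and the value printed in each cell. CD44 has values of 0.01 to 0.34 in laboratory water, and ITGA6 with ITGB4 has 0.96 and 0.97.

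Likeness was also ranked against every other feature, as a description, with each library taken as its deviation in log2 CPM from the mean of its water (18 libraries, 9007 other features). The feature most like ITGA6 was ITGB4 (r = 0.96). The feature most like the type I keratins was the type II keratins, and the reverse (r = 1.0). ITGA6 stood 20th and COL17A 27th in likeness to ITGB4, among 9007. The median correlation of a member with all other features was between 0 and 0.01. Without river water replicates 1 and 6, ITGB4 was again the nearest to ITGA6, and ITGA6 was then the nearest to ITGB4 (r = 0.97, 16 libraries). In the 9 laboratory water libraries alone, the nearest feature to each of the 7 members was none of the other members. All features of a library share its depth and makeup, and many others had values nearly as high.

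CD44 had other neighbours. The 2 features most like it were K11987 (r = 0.91) and K21932 (r = 0.88), which the deposited files do not name. Without river water replicate 6 they stood 4th and 28th, with r = 0.73 and 0.61, and in laboratory water alone 1036th and 405th. Their order in likeness to CD44 thus depends on that library. Of the other members ITGA6 was nearest to CD44, at rank 47 with r = 0.72, and the keratins were at 2345 and 2391. ITGA6 stood at rank 80 with r = 0.63 without river water replicates 1 and 6, and at rank 1686 with r = 0.34 in laboratory water alone.

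The members differed in how much they varied among pools of the same water. In laboratory water the SD of log2 CPM was 0.35 for COL17A, 0.33 for CD44, 0.30 for ITGB4, 0.21 for ITGA6, 0.15 for PLEC, 0.11 for the type II and 0.08 for the type I keratins, where the median over all features was 0.11. COL17A varied more than 97.3% of all features while its mean level was above that of 96.1% of features. The type I keratins varied less than most, and only 21.9% of features had a lower SD. In river water with all 9 libraries the SD was 1.08 for CD44, 0.87 for the type II keratins, 0.79 for COL17A, 0.76 for ITGB4, 0.54 for ITGA6, 0.52 for the type I keratins and 0.19 for PLEC, with a median of 0.17 over all features. Without replicates 1 and 6 it was 0.64 for CD44, 0.38 for ITGB4, 0.32 for ITGA6, 0.26 for COL17A, 0.19 for PLEC, 0.17 for the type II and 0.12 for the type I keratins, with a median of 0.11 over all features. CD44 then varied more than 99.9% of all features, while its mean level was above that of only 5.15% of features. It was not compared with features of like level, and the part of counting error in its spread was not tested.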

How the data were processed

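RNA from 18 pools of whole larvae was sequenced with standard Illumina library procedures, per the labels' protocols. The authors deposited raw counts of reads for each feature in every library, as whole numbers. How reads were aligned, to what sequences, and how they were counted is not given in the sources used here. Per the submitters' processing notes, edgeR was used, with no version named. Samples were grouped by the water in their titles. Sample files (9025 features) were the main source, and 0 values differed from the series table (9645 features).

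Differences were tested with edgeR 4.0.16 under R 4.3.3 (default low-count filter with a minimum count of 10, TMM scaling, robust quasi-likelihood F test, Benjamini-Hochberg adjustment over all features tested, threshold 0.05). The SE is the size of the log2 change divided by the square root of F. A prior count of 2 entered log2 CPM. The fits and the exact permutation test were tested on simulated data. Shares over all features, and over all pairs of features, were counted as a background for the members. Alternatives used DESeq2 1.42.0 and limma 3.58.1. The members, the file number and the tests were chosen with earlier results of these data known. All 7 members are named, with the 2 features most like CD44. A list of other genes of epithelial attachment and lists of cell type markers were not used, since the files pair no identifiers with gene symbols, so the labelled tissue was not checked against markers. No sequences were analysed here.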

Additional observations from a re-analysis of the deposited data

Results flagged for a closer look

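Each set of 9 values of a water was examined for a library whose gap to its nearest neighbour took up an unusually large part of the whole range. Of 24 such sets (7 levels and 5 ratios in each water), 6 held such a library. Chance gives about 1 in 20 for values with a normal distribution, and whether these levels and ratios have one was not tested. All 6 were in river water, and the sets share libraries and members. The share of all features with such a library was not counted, so nothing particular to the members is read from the 6. Over all features the median SD of log2 CPM in river water was 0.17, and 0.12 without replicate 1.

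River water replicate 6 was singled out for CD44, with 21.6 CPM where the next highest library had 5.28 CPM. River water replicate 1 was singled out for type I keratins (1740 CPM, next lowest 4300 CPM) and for type II keratins (749 CPM, next lowest 3740 CPM). The same library was singled out for its ratio of type I to type II keratin counts (2.33, next highest 1.18), its ratio of ITGB4 to ITGA6 counts (0.862, next lowest 1.45) and its ratio of COL17A to PLEC counts (0.158, next lowest 0.522). This library also had the lowest total count, 14868181, and the part of depth or RNA quality in these values was not tested.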

How the results depend on the processing

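The count of members past the threshold for water, 1 of 7, fell to 0 with limma-voom, with libraries summed by file number (fewer samples) and with at least 50 counts in 9 libraries, a filter that CD44 did not pass. It was 1 with any 1 library left out (range 1 to 1) and under the remaining settings. A replicate block, built from the numbers in the titles, gave 1, and 356 features were called instead of 565. Deviations of same-numbered libraries correlated at -0.433 to 0.372, above 0.1 in 4 of 9 pairs, so the numbers were not taken to pair the samples. The total of called features was 899 with DESeq2, 311 with summed libraries, 1041 without river water replicates 1 and 6, 1183 with the file number as a term and river water replicate 1 left out (a setting chosen after the data were seen), and 377 to 979 with 1 library left out. The log2 change of CD44 was between 1.14 and 1.96 with 1 library left out and between 1.17 and 1.89 under the other settings, and none of the 7 members changed sign under these settings. Fitted within a file number (n = 3 each), only CD44 and PLEC kept their sign. In numbers 1, 2 and 3 ITGA6 changed by -0.10, 0.52 and -0.03, and ITGB4 by -0.53, 0.23 and -0.32. COL17A changed by -0.77, 0.04 and -0.10, the type I keratins by -0.44, 0.08 and -0.08 and the type II keratins by -0.59, 0.01 and -0.20. Number 1 holds river water replicate 1, and differences in mean log2 CPM within it were also taken without that library. ITGA6 then went from -0.21 to 0.22, ITGB4 from -0.81 to -0.09 and COL17A from -1.12 to -0.32. The type I keratins went from -0.60 to -0.09 and the type II keratins from -1.01 to -0.13. The 1 member that differed by file number in laboratory water became 0 to 3 with 1 library left out (chosen after the data were seen), and the 0 members in river water were 0 to 0. Over all features the 88 called in laboratory water became 16 to 284. Correlated pairs numbered 7 to 11 in laboratory water and 11 to 15 in river water with 1 library left out, and 8 and 17 by Spearman's rho. Depth limits CD44 above all, at 17 to 41 counts per laboratory library.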
